A study of Mus musculus with 2 samples.

Results

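DNA methylation was examined at 9 genes that regulate granulocytes or mark their surface: the transcription factor genes Cebpa, Cebpe and Gfi1, the receptor genes Csf3r, Cxcr2, Fpr1 and Itgam, and the calcium-binding protein genes S100a8 and S100a9. The members were the CpG cytosines from 5000 bp before to 5000 bp after each gene in the GRCm38 annotation that each library covered with at least 10 reads. There were 894 of them among 3040450 cytosines shared by the libraries, in 7 of the 9 genes. No cytosine belonged to more than 1 of these 9 gene regions. Other annotated genes reach into the regions of Csf3r (Gm32908 and Mrps15), Itgam (Gm22809) and Fpr1 (Fpr2). None was listed in either library for S100a8 or S100a9.

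The assay was reduced representation bisulfite sequencing (RRBS) of peripheral blood cells, in which MspI cuts DNA at CCGG and bisulfite turns unmethylated, but not methylated, cytosines into bases read as T. There were 2 libraries: 1 from WT mouse blood, and 1 from blood of a mouse with proximal tubular epithelial cell specific expression of I-PpoI, a homing endonuclease that makes DNA double-strand breaks. The enzyme was thus directed to the kidney and not to the blood cells that were measured. The sources used here give no strain, age, sex or promoter driving I-PpoI, and do not say whether animals were pooled. With 1 library a group, every test below compares these 2 libraries and not the genotypes, and no difference has a replicate check. The files hold DNA methylation alone, so the label of peripheral blood cells was not checked against expressed markers. In mixed blood, another share of a cell type and another methylation level within cells cannot be told apart.

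Granulocytes arise from myeloid progenitors under the control of C/EBP factors and GFI1, and answer granulocyte colony-stimulating factor through the receptor encoded by Csf3r. Mature neutrophils carry CXCR2, FPR1 and the integrin CD11b, and hold S100A8 and S100A9 in large amounts in the cytosol. Regulatory DNA of an active myeloid gene is often poorly methylated in granulocytes and more methylated in lymphocytes, while CpG islands at gene starts are mostly unmethylated in all blood cells.

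In the WT file 3569384 cytosines were listed, at a median of 53 reads, and in the I-PpoI file 3141563, at a median of 49. Of the 894 member cytosines 5, all at Cebpa, exceeded the limit on coverage (284 reads for WT, 252 for I-PpoI) and were left out, so 889 were used. At the median a member cytosine had 60 WT reads and 46 I-PpoI reads. Cebpa and Gfi1 held 758 of the 889. The I-PpoI library had relatively fewer reads at methylated than at unmethylated cytosines: over the whole series the median ratio of I-PpoI to WT reads was 0.925 at cytosines under 20% methylated and 0.688 at those over 80%. A level pooled over reads can therefore shift between libraries where cytosines of unlike level are summed, and the difference with every cytosine weighted alike (the equal-weight difference) is given beside the pooled one for each member gene.

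All 7 measured gene regions had a lower pooled level in the I-PpoI library, and those of Cebpe and Cxcr2 were called lower. Calling a region took 10 percentage points or more and an adjusted p under 0.01 in a two-sided Fisher's exact test of methylated against unmethylated reads, with Benjamini-Hochberg adjustment over all gene regions. The calls were 2 of 7, beside 6.55% of 35562 gene regions called lower and 0.326% called higher; among regions at 10% or more in WT, 8.25% were called lower. With equal weights, the 10 points were asked of the equal-weight difference, while the Fisher p of pooled reads stayed the same. The count called was then 2 too, beside 2.44% of all regions lower and 0.205% higher. In a test that divides the Cochran-Mantel-Haenszel statistic by the spread between the cytosines of a region (the scaled test) it was again 2, beside 2.07% lower and 0.0422% higher. The median difference was -6.13 points over the 7 regions and -2.31 over all regions, and with equal weights -9.83 and -1.14. Regions under 10% in WT, such as those of Cebpa and Gfi1, cannot fall by 10 points.

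**Figure D1:**
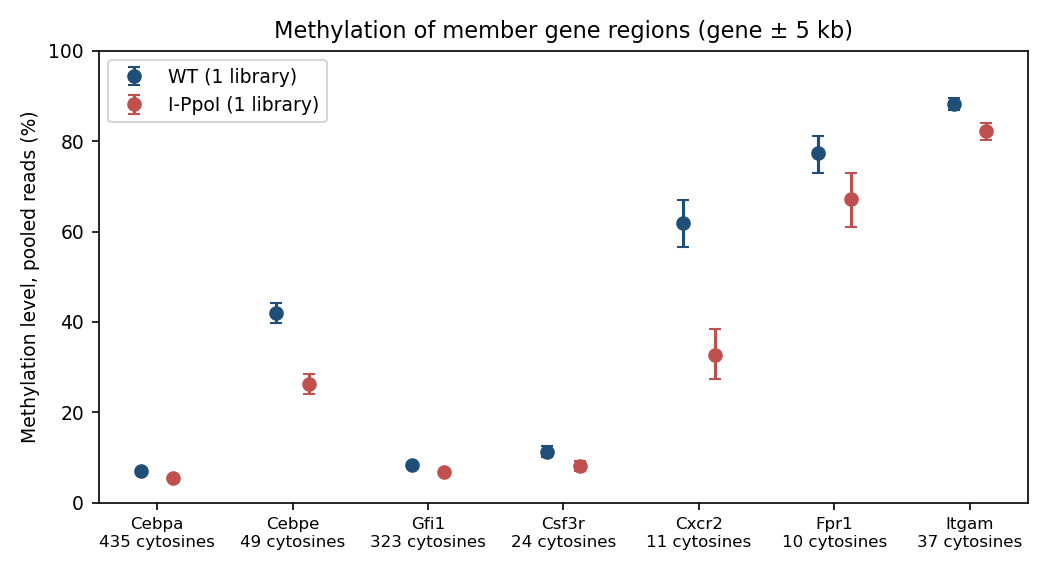
Pooled methylation level (%) of each measured member gene with 5 kb on either side, in the WT and the I-PpoI library (points, 1 library each; bars are 95% Wilson intervals, counting error only). Levels run from 7.0% at Cebpa to 88.3% at Itgam in WT, and the widest gap is at Cxcr2, from 61.9% to 32.6%.

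**Figure D2:**
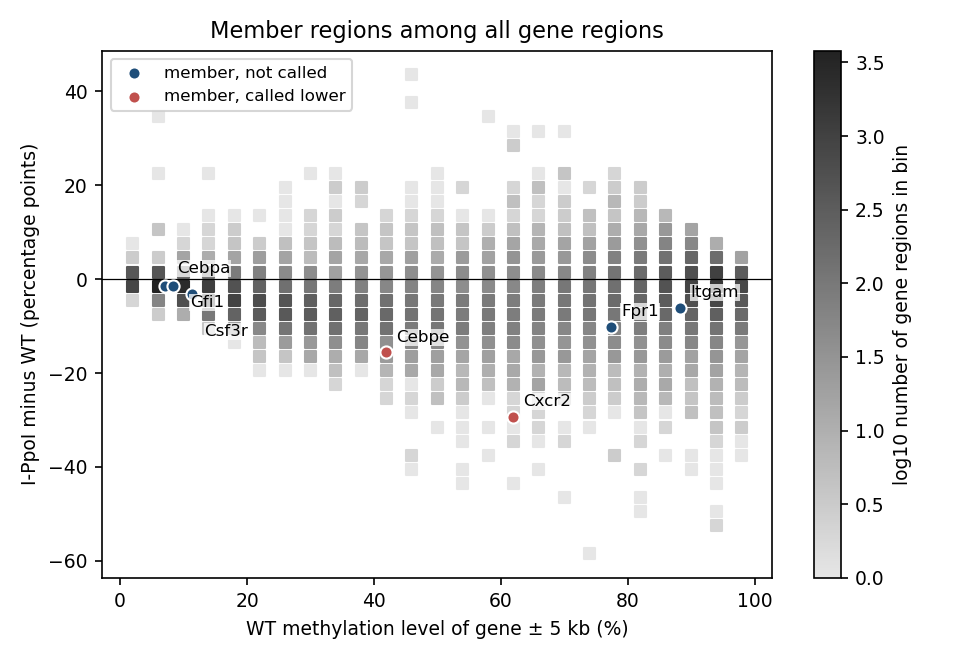
Difference of I-PpoI minus WT (percentage points) against the WT level (%) for all 35562 gene regions, as grey bins shaded by the log10 number of regions, with the 7 member regions as points. Cebpe and Cxcr2, called lower, lie at -15.6 and -29.3 points, while Cebpa, Gfi1 and Csf3r lie near 0 at low WT levels.

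Among the transcription factors, Cebpa, which directs progenitors to the granulocyte and monocyte lineage, was the most extensively covered gene and had a largely unmethylated island. Over 435 cytosines its region had 2586 methylated of 36945 reads in WT, or 7.0% (Wilson interval at 95%, 6.74 to 7.26). In I-PpoI it had 1868 of 33486, or 5.58% (5.34 to 5.83). I-PpoI minus WT was -1.42 points (Newcombe interval at 95%, -1.78 to -1.06; adjusted p = 4.05e-14 by Fisher's exact test), and -0.42 points by equal weights. Of these cytosines 153 were lower in I-PpoI, 110 higher and 172 equal. The 420 cytosines from chr7:35118035-35120961, which cover the gene start, had 4.41% methylated reads in WT against 4.14% in I-PpoI (-0.267 points, -0.570 to 0.0359).

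The 250 bases before the Cebpa start (GRCm38.p6, RefSeq, chr7:35119043-35119292, plus strand) are shown because they hold the most measured CpGs of any promoter among these genes, 20 of 22. Capitals mark CpGs with at least 1 cytosine used in both libraries.
Cebpa: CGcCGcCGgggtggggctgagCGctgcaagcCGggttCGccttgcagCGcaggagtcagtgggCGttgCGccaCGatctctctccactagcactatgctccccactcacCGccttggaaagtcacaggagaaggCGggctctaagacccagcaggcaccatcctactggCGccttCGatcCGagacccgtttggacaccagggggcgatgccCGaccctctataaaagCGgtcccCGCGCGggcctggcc
The 25 cytosines used there had a median level of 0% in both libraries. Of them 15 were equal, 7 higher and 3 lower in I-PpoI. Pooled over these 25 cytosines, 60 of 875 reads were methylated in WT (6.86%) and 92 of 989 in I-PpoI (9.30%). Of these methylated reads, 35 in WT and 57 in I-PpoI came from the forward cytosine at chr7:35119049, in an MspI site.

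Within that unmethylated island, 8 cytosines were at 50% or more in both libraries, against 366 that were under 10% in both. At chr7:35119738 the forward cytosine was methylated in 47 of 47 reads in WT and 31 of 31 in I-PpoI, while the reverse cytosine of the same CpG was at 0% of 169 reads (a count of 0 allows up to 1.78%) and 3.20% of 125. At chr7:35119940 the forward cytosine was at 82.0% and 83.3% and its reverse partner at 9.17% and 0%, the last of 95 reads, which allows up to 3.16%. At chr7:35119399 the reverse cytosine was at 71.1% and 81.8%, and the forward one at 1.57% and 0%, the last of 83 reads, which allows up to 3.61%. Both libraries thus had high levels on the same single strand at these sites, each with fewer reads on the methylated than on the unmethylated strand. The link between this and read number was not tested.

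Beyond the island, 1 Cebpa cytosine was called. For single cytosines the rule was 25 points or more and an adjusted p under 0.01 over all 3026647 of them. The forward cytosine at chr7:35116968, at -2325 bp from the start, was methylated in 58 of 61 reads in WT (95.1%) and 20 of 38 in I-PpoI (52.6%), a difference of -42.5 points (-58.2 to -25.3; adjusted p = 0.000417 by Fisher's exact test). Its reverse partner at chr7:35116969 was listed in I-PpoI alone and was methylated there in 12 of 12 reads, so the lower level was seen on the forward strand only. At chr7:35117039 nearby, the reverse cytosine was at 96.4% and 69.4%, and the forward cytosine of that CpG at 95% and 100%. Farther upstream, 8 cytosines at chr7:35115926-35116016 were at 87.2% and 87.0%, so the 2 neighbouring stretches of this flank differed by unlike amounts.

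Gfi1 encodes a zinc finger repressor needed for neutrophil maturation, and its region was also largely unmethylated. Over 323 cytosines 8.33% of WT reads and 6.82% of I-PpoI reads were methylated (-1.51 points, -2.06 to -0.967; adjusted p = 2.01e-07 by Fisher's exact test), and the equal-weight difference was -0.265. The region within 1000 bp of the 5′ end was at 3.34% and 2.29% over 169 cytosines. No Gfi1 cytosine or window was called.

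The promoter table holds 2 starts for Gfi1, and the second is shown because all 9 of its CpGs were measured, on both strands, and 15 of 18 cytosines were lower in I-PpoI, 1 was higher and 2 were equal (GRCm38.p6, RefSeq, chr5:107724344-107724593, minus strand). Capitals mark CpGs with at least 1 cytosine used in both libraries.
Gfi1: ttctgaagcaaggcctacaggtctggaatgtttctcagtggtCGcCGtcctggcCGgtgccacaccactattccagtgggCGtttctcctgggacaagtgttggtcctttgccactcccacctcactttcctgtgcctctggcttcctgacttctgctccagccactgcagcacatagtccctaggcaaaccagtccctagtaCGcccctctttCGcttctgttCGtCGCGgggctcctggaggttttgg
Pooled over these 18 cytosines, 50 of 1272 reads were methylated in WT (3.93%) and 10 of 1041 in I-PpoI (0.961%). The median cytosine was at 3.27% and 0%, so the levels were low in both libraries. The first start had 13 CpGs in its 250 bases and none was used.

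A stretch inside Gfi1 was methylated, and its parts differed in opposite directions. Over 41 cytosines at chr5:107721095-107721671 the level was 70.2% in WT and 71.1% in I-PpoI (difference 0.887 points, -2.98 to 4.71). Of 8 reverse cytosines at chr5:107721095-107721177, 7 were lower and 1 higher in I-PpoI, with pooled levels of 74.0% (WT) and 41.9% (I-PpoI), -32.0 points apart (-41.2 to -22.3), on 57 to 60 reads per cytosine in WT and 14 to 16 in I-PpoI. The 11 reverse cytosines at chr5:107721601-107721671 were at 71.3% and 81.6%, 10.3 points higher in I-PpoI (3.15 to 17.7), with 15 to 28 reads in WT and 31 to 40 in I-PpoI. In both reverse parts the library with fewer reads had the lower level. The 22 forward cytosines at chr5:107721537-107721670 went the other way, at 66.8% of 590 reads in WT and 70.6% of 445 in I-PpoI. The reverse parts were picked after their values were seen, and neighbouring cytosines share reads, so the intervals are too narrow.

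Cebpe, which encodes the C/EBP factor of late granulocyte maturation, had 29 of 49 cytosines lower in I-PpoI. Its region had 41.9% methylated reads in WT (835 of 1992) and 26.3% in I-PpoI (404 of 1537) over 49 cytosines. The difference was -15.6 points (-18.7 to -12.5; adjusted p = 1.96e-21 by Fisher's exact test), with -16.0 by equal weights and an adjusted p of 7.1e-05 in the scaled test. Another 6 were higher and 14 equal.

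The Cebpe difference lay mainly in 1 of 3 measured stretches. At the gene end with more cytosines, 31 cytosines at chr14:54711731-54712858 had 67.5% methylated reads in WT against 45.9% in I-PpoI; 27 were lower, 3 higher and 1 equal. The difference was -21.6 points (-25.9 to -17.1), and -24.8 by equal weights. Beyond that end, 14 cytosines at chr14:54714168-54714443 had 1 methylated read of 694 in WT (0.144%) and 2 of 626 in I-PpoI (0.319%). In the flank beyond the other end, 4 cytosines at chr14:54706701-54706733 were at 39.3% and 32.2% (difference -7.10, -18.2 to 4.4). The unmethylated stretch thus stayed near 0 in both libraries beside a partly methylated one that was lower in I-PpoI; the difference between the stretches was not tested.

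Within the partly methylated stretch, levels differed by strand. The 17 forward cytosines at chr14:54711731-54712015 went from 70.3% to 47.2% (-23.1 points, -28.5 to -17.6), with 16 lower and 1 higher. The 7 reverse cytosines at chr14:54711732-54711950 went from 36.9% to 34.3% (-2.61 points, -16.5 to 11.9), with 5 lower and 2 higher, on 12 to 16 reads in WT and 10 in I-PpoI at each. The 2 better covered reverse cytosines at chr14:54712096-54712111 went from 82.3% to 55.7%. Of the 2 cytosines called here, the reverse one at chr14:54712096 went from 116 of 124 reads (93.5%) to 37 of 55 (67.3%; Fisher's exact test, adjusted p = 0.00304). The forward one at chr14:54711770 went from 14 of 14 reads to 0 of 11 (Fisher's exact test, adjusted p = 0.000165), where a count of 0 allows up to 27.3%. Its reverse partner went from 8 of 15 reads (53.3%) to 2 of 10 (20%). Against these, the reverse cytosines at chr14:54711760 and chr14:54711830 were higher in I-PpoI, 25% to 80% and 25% to 100%, and neither was called.

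**Figure D3:**
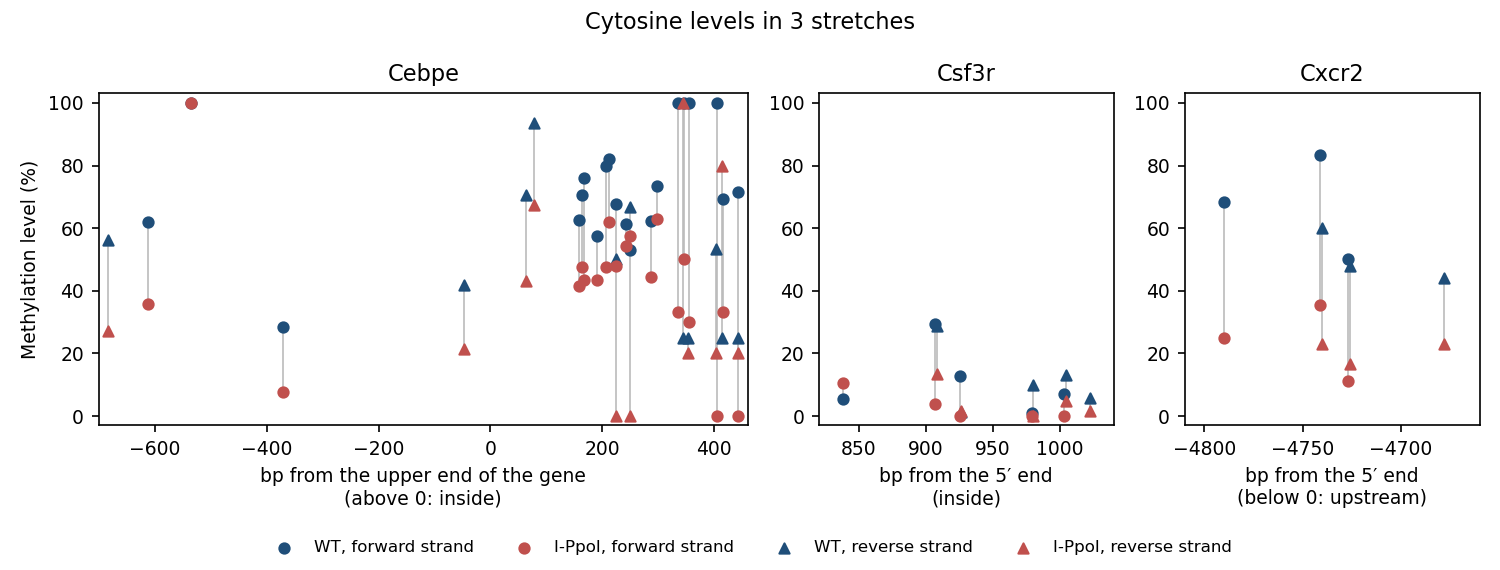
Methylation level (%) of each cytosine in the WT and I-PpoI libraries against distance (bp) from the end of Cebpe with more cytosines and from the 5′ ends of Csf3r and Cxcr2; circles are forward and triangles reverse cytosines, and grey lines join the libraries. Most Cebpe cytosines and all 6 at Cxcr2 are lower in I-PpoI, and 2 reverse Cebpe cytosines are higher in I-PpoI, from 25%.

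Among the receptors, Csf3r encodes the receptor of granulocyte colony-stimulating factor, the main growth signal of neutrophils. Its region had 286 methylated of 2525 reads in WT (11.3%) and 204 of 2515 in I-PpoI (8.11%), or -3.22 points (-4.85 to -1.58; adjusted p = 0.000267 by Fisher's exact test) and -3.19 by equal weights. It was below the 10 points asked. Its summed read numbers were nearly equal, but those of its stretches were not. They were 993 in WT and 796 in I-PpoI near the gene start, and 1532 and 1719 in the other stretch. The lower level was seen in the stretch near the gene start: 10 cytosines at chr4:126024279-126024463, inside the gene and 838 to 1022 bp from its 5′ end, were at 12.1% in WT and 3.64% in I-PpoI (-8.44 points, -10.9 to -6.01), with 8 lower and 2 higher. The lncRNA gene Gm32908, on the other strand, overlaps that stretch. The 14 cytosines at chr4:126046796-126046917, beside the start of the neighbouring gene Mrps15, were at 10.8% and 10.2% (-0.655 points, -2.79 to 1.45), 5 lower and 5 higher.

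The Csf3r promoter in the table starts within that first stretch and is shown because all of its 5 measured cytosines were lower in I-PpoI (GRCm38.p6, RefSeq, chr4:126024409-126024658, plus strand). It precedes a start that lies farther into the gene than the 5′ end used here for distances and start regions. Capitals mark CpGs with at least 1 cytosine used in both libraries.
Csf3r: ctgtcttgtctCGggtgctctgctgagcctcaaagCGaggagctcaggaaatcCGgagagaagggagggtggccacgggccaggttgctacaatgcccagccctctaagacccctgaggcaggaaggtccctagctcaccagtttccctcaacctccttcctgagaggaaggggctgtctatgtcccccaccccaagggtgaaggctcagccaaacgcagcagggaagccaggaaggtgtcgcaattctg
Over these 5 cytosines 32 of 448 reads were methylated in WT (7.14%) and 4 of 363 in I-PpoI (1.10%). The reverse cytosine at chr4:126024421 went from 10% of 140 reads to 0% of 123, where a count of 0 allows up to 2.44%. It was not called. The called cytosine of Csf3r lies just before this sequence, at chr4:126024348 on the forward strand, and went from 31 of 106 reads (29.2%) to 3 of 75 (4.0%; Fisher's exact test, adjusted p = 0.00266). Its reverse partner went from 28.8% of 132 reads to 13.6% of 118, so both strands were lower, but their sum differed by -19.1 points and was not called.

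Motifs were searched on both strands of the 250 bases before each start in 32851 promoters of the table. The Csf3r promoter holds 1 MspI site CCGG, found in 47.1% of promoters, and 1 copy of GAGGAA, a core bound by the myeloid factor PU.1, found in 23.3%. Cebpa holds 2 MspI sites, the second Gfi1 start 1 and Itgam 1. The promoters of Cxcr2, Fpr1, S100a8 and S100a9 and the first Gfi1 start hold none. GAGGAA was also found in the promoters of Itgam, Cxcr2 and S100a8. The C/EBP-like pattern TTNNGNAA, in 36.8% of all promoters, was found at the first Gfi1 start and at Itgam, S100a8, S100a9 and Fpr1. The GFI1 core AAATC, in 32.7%, was found at Csf3r, Cxcr2, S100a9 and Fpr1, and the RUNX core TGTGGT, in 14%, at S100a9. These matches describe letters in a window and no binding.

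Cxcr2, the receptor of ELR+ CXC chemokines that draws neutrophils into tissue, showed the largest difference among the 7 regions. Its region went from 208 of 336 reads (61.9%) to 88 of 270 (32.6%), a difference of -29.3 points (-36.6 to -21.5; adjusted p = 3.28e-12 by Fisher's exact test), with -22.9 by equal weights and an adjusted p of 0.000533 in the scaled test. Of 11 cytosines 9 were lower, 1 higher and 1 equal. The lower stretch lay at -4790 to -4678 bp from the 5′ end, at chr1:74149204-74149316, where 6 cytosines went from 55.9% of 213 reads to 22.4% of 196 (-33.4 points, -41.8 to -24.2).

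All 6 cytosines of that Cxcr2 stretch were lower in I-PpoI, on both strands. Their levels were 44.0% to 83.3% in WT and 11.1% to 35.5% in I-PpoI, and neighbouring cytosines share reads. None of the 6 was called alone, at 19 to 50 reads in WT and 27 to 36 in I-PpoI. A further reverse cytosine there, at chr1:74149205, was listed in WT alone and was methylated in 15 of 15 reads. With both cytosines of a CpG summed, the CpG at chr1:74149253 went from 67.6% to 28.8% (Fisher's exact test over 1790901 CpGs, adjusted p = 0.000897) and that at chr1:74149267 from 48.6% to 14.3% (adjusted p = 0.00345), and both were called. The 4 cytosines after the gene at chr1:74164489-74164680 went from 82.9% to 75.9% (-7.0 points, -20.8 to 5.4).

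Fpr1 encodes the receptor for N-formyl peptides released by bacteria and mitochondria. Its region went from 307 of 397 reads (77.3%) to 160 of 238 (67.2%), or -10.1 points (-17.4 to -2.96) and -9.95 by equal weights, and was not called (Fisher's exact test, adjusted p = 0.0126). It passed the call rule at a coverage minimum of 20 reads (-20 points, adjusted p = 5.96e-05) and with thinned reads (-16.0 points, adjusted p = 0.000614), both by Fisher's exact test. With a flank of 2000 bp or none the difference was 0. The strands also differed. Forward cytosines alone differed by -24.4 points and were called as a region, and reverse cytosines alone differed by 0.60 points. In the flank beyond the 3′ end, the forward cytosines at chr17:17871583 and chr17:17871639 went from 83.3% to 34.6% and from 83.8% to 47.9%, and both were called (Fisher's exact test, adjusted p = 0.00935 and 0.0066). The reverse partner of the latter, with more reads, went from 87.9% of 132 reads to 83.9% of 56. Inside the gene 6 cytosines at chr17:17878516-17878814 were at 96.2% in both libraries.

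Itgam encodes CD11b, the alpha chain of the integrin that neutrophils and monocytes use to adhere and to take up opsonised particles. It was the most methylated of the 7 regions and went from 88.3% of 2326 reads to 82.2% of 1526 over 37 cytosines. The difference was -6.13 points (-8.49 to -3.84; adjusted p = 4.15e-07 by Fisher's exact test) and -9.83 by equal weights, the latter just short of 10 points. Of the cytosines 23 were lower, 9 higher and 5 equal.

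The differences at Itgam were uneven along the gene. Before the gene, 4 cytosines at chr7:128059397-128059536 went from 39.8% to 22.7% (-17.1 points, -29.1 to -3.97). At 5054 to 5135 bp into the gene, 2 cytosines at chr7:128067694-128067775 went from 66.0% to 29.0% (-37.0 points, -49.9 to -21.4). At chr7:128080276-128080382, 3 cytosines went from 84.7% of 236 reads to 52.8% of 89 (-31.9 points, -43.0 to -20.7). Between the last 2 of these, 4 cytosines at chr7:128076078-128076211 were at 93.7% and 95.1%, and just after them 7 at chr7:128081548-128081637 were at 93.5% and 90.7%. The last 4 stretches, from chr7:128102818 on, were at 83.3% to 93.4% in WT and 73.7% to 92.3% in I-PpoI.

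Itgam also had the most called cytosines, 3 in all. The reverse cytosine at chr7:128067775 went from 40 of 60 reads (66.7%) to 6 of 34 (17.6%; Fisher's exact test, adjusted p = 0.0015), the forward one at chr7:128080276 from 81 of 99 (81.8%) to 9 of 27 (33.3%; adjusted p = 0.0011), and the reverse one at chr7:128080382 from 95 of 113 (84.1%) to 26 of 50 (52.0%; adjusted p = 0.00566). The reverse partner of chr7:128080276 was fully methylated in both libraries, 24 of 24 and 12 of 12 reads. The difference there was thus seen on 1 of the strands only. The forward partners of the other called cytosines were listed in WT alone, methylated in 11 of 11 reads at chr7:128067774 and 34 of 34 at chr7:128080381.

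S100a8 and S100a9 encode the subunits of calprotectin, an abundant cytosolic protein of neutrophils. Neither library listed a cytosine within 5000 bp of them. The 250 bases before the S100a8 start are shown because they hold no MspI site and 2 CpGs (GRCm38.p6, RefSeq, chr3:90668821-90669070, plus strand); no letter is in capitals, since no CpG was measured.
S100a8: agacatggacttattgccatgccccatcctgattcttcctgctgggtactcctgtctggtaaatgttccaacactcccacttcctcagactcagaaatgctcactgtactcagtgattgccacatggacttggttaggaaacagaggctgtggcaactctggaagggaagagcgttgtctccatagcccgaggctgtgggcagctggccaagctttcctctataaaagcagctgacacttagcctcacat
The S100a9 promoter also had 2 CpGs and no MspI site. Their methylation was not analysed here.

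Over all members, 9 of 889 cytosines were called lower and none higher, 1.01%, beside 0.429% of all cytosines called lower and 0.0561% higher. A cytosine under 25% in WT cannot be called lower: among those at 25% or more, 9 of 177 members (5.08%) and 0.988% of all cytosines were called. At an unadjusted p under 0.05 there were 118 of 889 members, 13.3%, beside 11.9% of all cytosines. Called cytosines had a median of 74 WT and 38 I-PpoI reads, and the ratio of I-PpoI to WT reads ranged from 0.273 to 0.786. When each cytosine was thinned to the lower coverage of the libraries, 1 was called, that at chr14:54711770 in Cebpe. That is 0.112% of the members, below the 0.185% of all cytosines called lower with thinned reads, so the members' higher share of calls was not seen at that setting. With the used cytosines of each CpG summed, whether 1 or both, 9 of 527 CpGs were called lower, beside 0.541% of all CpGs. Of these called CpGs, 7 held a called cytosine. Both cytosines were used at 362 of the 527. At 5 called cytosines no partner was used, so there the sum is the same single-strand value and no second check.

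**Figure D4:**
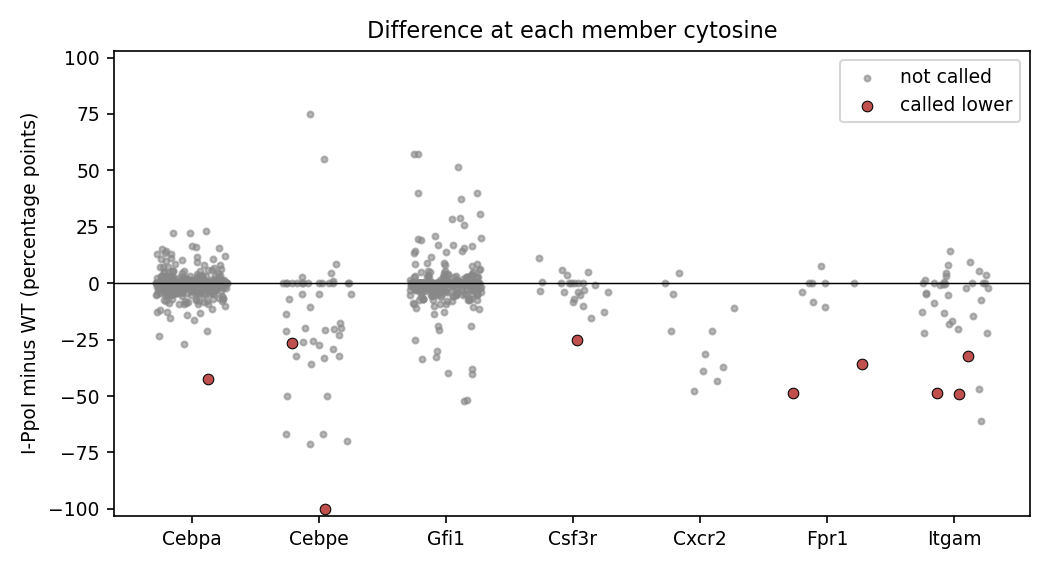
Difference of I-PpoI minus WT (percentage points) at each of the 889 member cytosines by gene, jittered sideways, with the 9 called lower in red. Differences at Cebpa cluster around 0, and the called cytosines lie between -25.2 and -100 points.

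Differences were largest at partly methylated cytosines. Of 105 member cytosines with a mean of both libraries from 20 to 80%, 67.6% were lower and the mean went from 54.0% to 41.2% (-12.8 points). In all cytosines of that class 61.3% were lower and the mean difference was -6.03 points. This class is itself widened by a large difference. Leaving out Cebpa and Gfi1, a choice made after the values were seen, 44 of 49 such cytosines were lower, with a mean of 63.9% in WT and 36.4% in I-PpoI. At Cebpa it was 13 of 25 and at Gfi1 14 of 31. Members under 20% differed by -0.653 points and those over 80% by -0.535, beside -0.837 and -0.913 in all cytosines. Without Cebpa and Gfi1 these were -3.86 points at 40 cytosines and -1.79 at 42.

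In windows of 1000 bp, 2 of 28 member windows were called lower at 25 points and an adjusted p under 0.01, beside 1.0% of 165854 windows lower and 0.0742% higher. Among windows at 25% or more in WT it was 2 of 18 members and 1.27% of all. They were those of the Cxcr2 flank, chr1:74149001-74150000, and of Itgam, chr7:128080001-128081000 (Fisher's exact test, adjusted p = 2.91e-10 and 3.77e-07). In genes with no called window, the one with most reads was chr7:35119001-35120000 at Cebpa (3.86% and 3.79%), chr5:107724001-107725000 at Gfi1 (2.83% and 1.30%), chr17:17871001-17872000 at Fpr1 (72.6% and 52.5%), and at Cebpe and Csf3r the windows of the 14 cytosines described above for each. The Cebpe window at chr14:54712001-54713000 differed by -24.9 points and missed the 25 asked. The scaled test called 0 of the 28, beside 0.101% of all windows lower and 0.00482% higher, with adjusted p of 0.0303 for Cxcr2 and 0.459 for Itgam, and 7 of 28 (25%) had an unadjusted p under 0.05, beside 15.1% of all windows. Of gene starts, measured in 4 members, Cebpe was called, beside 2.83% of 22553 start regions called lower and 0.333% higher. The start regions of Cebpa, Gfi1 and Csf3r differed by -0.0859, -1.05 and -8.97 points.

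Where both cytosines of a CpG were measured, the strands moved together more often than apart. Of 362 member CpG pairs 83 were lower on both strands, 30 higher on both and 70 opposite, and in 179 at least 1 strand was equal in the libraries. Over all 1235746 pairs the counts were 242755, 123918, 321015 and 548058. Pairs moving together thus outnumbered opposite pairs over the whole series too. Among the 180 pairs of Cebpa 33 were lower on both strands, 17 higher on both and 38 opposite. Among the 139 pairs of Gfi1 these counts were 34, 9 and 24. At Cxcr2 all 3 pairs were lower on both strands. Strands were over 50 points apart in WT at 17 of 362 pairs (4.7%), of which Cebpa held 7, Cebpe and Gfi1 4 each and Csf3r 2, beside 6.09% of all pairs. At chr4:126046797 beside Csf3r, for example, the reverse cytosine had levels of 96.2% (WT) and 100% (I-PpoI), while its forward partner had 2.53% and 8.33%.

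**Figure D5:**
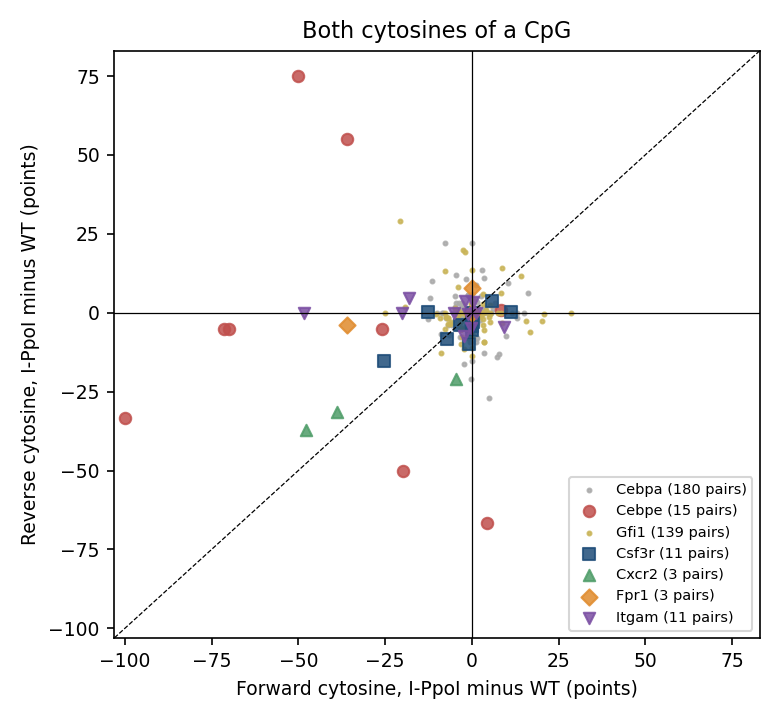
Difference of I-PpoI minus WT (percentage points) at the forward (x axis) and reverse (y axis) cytosine of the 362 member CpGs measured on both strands, with a dashed line of equality. The 3 Cxcr2 pairs lie in the lower left, while several Cebpe pairs lie far from the line, up to 75 points higher on the reverse strand.

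Related genes were compared as gene regions. Over all gene regions 6.55% were called lower and 0.326% higher, with 2.44% lower by equal weights and 2.07% in the scaled test. Of 5 other C/EBP family genes none was called (median difference -1.33 points, from -1.94 to -0.779). Of 20 granulocyte transcription factor genes 1 was called lower, Spi1, encoding PU.1, at 51.2% against 39.9%; weighting cytosines alike gave -2.10 points and no call. Of 14 measured haematopoietic cytokine receptor genes and partners 2 were called lower: Csf2rb, the shared beta chain of the GM-CSF, IL-3 and IL-5 receptors (46.8% to 33.0%), and Csf1r, the M-CSF receptor (85.1% to 74.1%). With equal weights the differences were -8.25 and -1.39 points, below the call for both. Of 9 measured chemoattractant receptor genes 2 were called lower, and by equal weights too: C5ar1, the receptor of complement C5a, from 62.1% to 42.1%, and its neighbour C5ar2, from 75.8% to 59.9%. These regions share 31 of their 37 and 58 cytosines. Of 11 integrin and adhesion genes none was called.

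The S100 list had 1 of 13 called lower, S100a3, at 73.7% against 51.9%; weighting cytosines alike gave -6.37 points and no call. Its regions overlap, and 351 cytosines were distinct. Of 11 pattern and Fc receptor genes 1 was called lower, Ager, the receptor of S100A8 and S100A9 among other ligands (20.6% to 10.5%), and 1 higher, Clec4e, encoding the C-type lectin Mincle (26.3% to 39.9%). With equal weights Ager differed by -2.39 points and Clec4e by -4.26, a turned sign for Clec4e, and neither was called. The list medians ran from -5.70 points in chemoattractant receptors to -0.660 in the S100 list, beside -2.31 over all gene regions, and by equal weights from -4.61 in chemoattractant receptors to -0.730 in C/EBP genes, beside -1.14. In the scaled test C5ar1, C5ar2, Csf2rb, S100a3 and Ager were called lower, and Spi1, Csf1r and Clec4e were not called.

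Marker genes of the cell types that blood can hold were compared too. Of 10 measured neutrophil marker regions 4 were called lower (Mmp8, Ctsg, Mpo and Camp), and of 8 monocyte markers 3. Of 12 T cell markers it was 1, of 10 B cell markers 0, of 6 NK cell markers 1 and of 9 erythroid and platelet markers 1. None was called higher, beside 6.55% of all gene regions called lower and 0.326% higher. By equal weights the counts called lower were 4, 1, 0, 1, 0 and 0, beside 2.44% of all gene regions. In the scaled test they were 2, 0, 1, 0, 0 and 1, beside 2.07%, and Mmp8 and Camp were no longer called. Median differences were -5.48, -2.90, -3.90, -4.22, -4.83 and -3.77 points, in that order, and by equal weights -3.91, -1.18, -1.16, -0.742, -2.41 and -2.86, beside -2.31 and -1.14 over all gene regions. The regions did not start alike: the median WT level was 72.6%, 68.6%, 35.0%, 52.6%, 53.2% and 27.9% in the same order, and 37.1% over all gene regions. The part of cell mix in the differences at Cebpe, Cxcr2, Fpr1 and Itgam was not tested.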

How the data were processed

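RRBS libraries of peripheral blood cells, 1 WT and 1 I-PpoI, were made with a Zymo-Seq kit per the labels' protocols, and methylKit was used per the submitters' processing notes. The sources used here name no aligner, genome build, trimming or duplicate removal. Each deposited file, per the file headers, gives the count of reads over each CpG cytosine on its strand and the percent of them with C or T. Percent C times the count was whole within 1e-06 at 100% of cytosines, so methylated reads were recovered. No cytosine under 10 reads was listed.

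The members, gene lists and tests were chosen with earlier results of these data known. Gene positions and promoters came from RefSeq tables of GRCm38.p6, which hold no exons. Of 428017 cytosines in their promoters 99.9% lay on a CG of the right strand, so the libraries were taken to share that build. All 9 genes were matched by symbol, 8 with a promoter. The 5′ end came from the promoter's strand and, for Cebpe, was replaced by the gene end with more cytosines.

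Cytosines on the autosomes and X above the 99.9th percentile of coverage were left out. Regions, starts and windows needed 3 cytosines. Stretches join cytosines less than 500 bp apart, and the strand stretches less than 100. Every member was described, and from related lists up to 3 called genes were named by size. Intervals are 95% Wilson or Newcombe and cover counting error only: PCR copies are not independent molecules, and a read is counted at each cytosine it spans. Limits for a count of 0 are 3 reads of the total. Alternatives changed coverage minimum and cap, strand, depth, weights, test, cytosine minimum, region, window and threshold. The tests were also run on simulated data. There the reads of each cytosine were drawn independently, at 1 level for both libraries unless changed. These data hold no reads shared by cytosines, no PCR copies and no variation between libraries. Their counts of calls thus do not give the rate of false calls in real reads. In gene regions with no cytosine changed, pooled reads gave 803 calls, equal weights 9 and the scaled test 0. Of 200 regions simulated at -20 points, 187, 186 and 124 were called lower, in that order. Of 200 windows simulated at -30 points, pooled reads called 166 and the scaled test 40. Python 3.11.15 with numpy 2.4.6, scipy 1.17.1 and numba 0.67.0 was used.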

Additional observations from a re-analysis of the deposited data

How the results depend on the processing

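The count of member calls depended on how regions were drawn. Of the 2 gene regions called, 1 was called with a flank of 2000 bp (6.64% of all regions) and 1 with no flank (7.38%), since the Cxcr2 stretch lies over 4 kb before that gene. The 1 start region called became 2 on the forward strand alone (3.01% of all), where Csf3r differed by -10.2 points. The 2 windows called became 1 of 18 on the forward strand alone (beside 1.1% of all windows), 0 of 28 in the scaled test (0.101%), 1 of 19 with at least 5 cytosines (0.634%), 4 of 34 in windows of 500 bp (0.97%), 1 of 24 in windows of 2000 bp (0.973%) and 4 of 29 with windows shifted by 500 bp (0.988%). Of the 9 cytosines called, 1 was called with thinned reads. Thinned reads left 0.112% of members called beside 0.185% of all cytosines. The cause of these shifts was not tested. Signs turned for 3 values, none of them called: the Fpr1 region differed by 0.60 points on reverse cytosines, and the Cebpa start by 0.0170 points on reverse cytosines and 0.389 points within 500 bp. The cause was not tested. The other settings kept each count of member calls within 1.5 times. Over its settings the Cebpe region differed by -22.6 to -12.2 points and the Cxcr2 region by -39.5 to -22.9 points, called in each setting that could measure them. Cxcr2 had under 3 cytosines with a flank of 2000 bp or none. No paired analysis was possible because each group has 1 library.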

Other observations

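Cytosines listed in 1 library alone were outside every comparison. Csf3r had 74 in WT and none in I-PpoI, so that 98 cytosines were listed near it in WT and 24 in I-PpoI. Of these 74, 59 lay at chr4:126046922-126047258, around the start of Mrps15, with 10 to 15 reads each and 3 methylated of 732 reads (0.410%). The others included 5 inside Csf3r at chr4:126032038-126032151 (84.3% of 89 reads) and 6 at chr4:126042522-126042810 (90.0% of 110 reads), so that these stretches of the gene were highly methylated in WT and not compared. At Gfi1, 39 cytosines were listed in WT alone and 32 in I-PpoI alone. In WT, 36 of them at chr5:107721030-107721974 were at 79.3% of 561 reads. In I-PpoI, 31 at chr5:107721542-107721975 were at 85% of 359. Also inside the gene, the cytosine at chr5:107725078 had 3 methylated of 21 reads in WT. That at chr5:107723917 had 0 of 12 in I-PpoI. At Cebpa 57 were listed in WT alone, 51 of them in the island with 3 methylated of 711 reads (0.422%).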
